A study of Homo sapiens with 12 samples.

Results

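Transcripts of 10 genes of the death receptor pathway were followed in HCT116 cells deprived of cystine. The set holds the death receptors TNFRSF10A, TNFRSF10B, FAS, TNFRSF1A and TNFRSF21, the decoy receptor TNFRSF10D, the TWEAK receptor TNFRSF12A, and the caspase-8 platform genes CFLAR, CASP8 and FADD. They were taken by gene symbol from the table of estimated counts, where each symbol matched 1 row, so that the set makes up 10 of 60671 rows with a gene name. All 10 had enough counts to be tested, among 16994 tested genes. HCT116 is an established human colorectal carcinoma line, labelled WT for genotype, and a single line was used. Control cells stayed in full DMEM and deprived cells were washed and given DMEM with 0 mM cystine, both with 10% fetal bovine serum and antibiotics, for 24 h or 48 h. Each of the 4 groups (control and deprived, 24 h and 48 h) held 3 samples. A wash and new medium are described for deprived cells only, so the comparisons of media include that step.

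Death receptors are members of the TNF receptor family that carry a death domain in their cytoplasmic tail. Bound by TRAIL, Fas ligand or TNF, they assemble the adaptor FADD and the initiator caspase-8 into a complex in which CFLAR, a caspase-8 relative without a working active site, can hold caspase-8 back. Active caspase-8 cuts the executioner caspases directly or cuts BID, which carries the signal to mitochondria. In colorectal carcinoma cells TRAIL receptors are known as sensors that can start apoptosis when they are raised by endoplasmic reticulum stress.

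Total estimated counts lay between 19146108 and 24179533 per sample, and mitochondrial transcripts held between 6.62% and 8.64% of counts on average in the 4 groups. Epithelial markers summed to 3960 to 5580 CPM in every sample (7 of 7 tested), as in the labelled cell type. VIL1 was the exception in level, with group means of only 0.814 to 1.25 CPM. Leukocyte markers summed to 0.629 to 1.44 CPM, with PTPRC and CD3E at 0 counts in all 12 samples, and endothelial markers to 0.82 to 2.41 CPM. Fibroblast markers summed to 32.3 to 49.4 CPM in control cells and 16.3 to 22.6 CPM in deprived cells. COL1A1 carried the difference, with a log2 fold change of -0.83 ± 0.09 at 24 h and -1.19 ± 0.08 at 48 h. The other fibroblast markers, COL1A2, COL3A1, PDGFRB, DCN and LUM, reached at most 9, 15, 21, 1 and 2 counts in any sample. The part of the COL1A1 shift in the results below was not tested. Whether the 3 samples of each group were grown as separate cultures is not stated in the labels, and the p-values therefore rest on a spread between samples that may be technical. In bulk RNA, a change in the share of cells that carry a transcript and a change in RNA per cell cannot be told apart.

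Levels are given as CPM (counts scaled to a common library size, with TMM-scaled totals), in the order of replicates 1, 2 and 3. Changes are log2 fold changes ± SE from edgeR's quasi-likelihood test, with p-values adjusted by Benjamini-Hochberg over all 16994 genes and a threshold of 0.05. After 24 h without cystine 7 of the 10 transcripts were called higher, against 28.8% of all tested genes. At that time 1 was called lower (26.9% of all genes) and 2 were not called. After 48 h 8 were called higher (33.5% of all genes), 1 lower (34.9%) and 1 was not called. The median log2 fold change of the 10 was 0.47 at 24 h and 0.64 at 48 h, where the median of all tested genes was -0.01 and -0.02. The 10 genes, and the gene lists used below, were chosen with earlier results of these data known. Counts and medians therefore describe these genes and do not test them as a set.

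**Figure D1:**
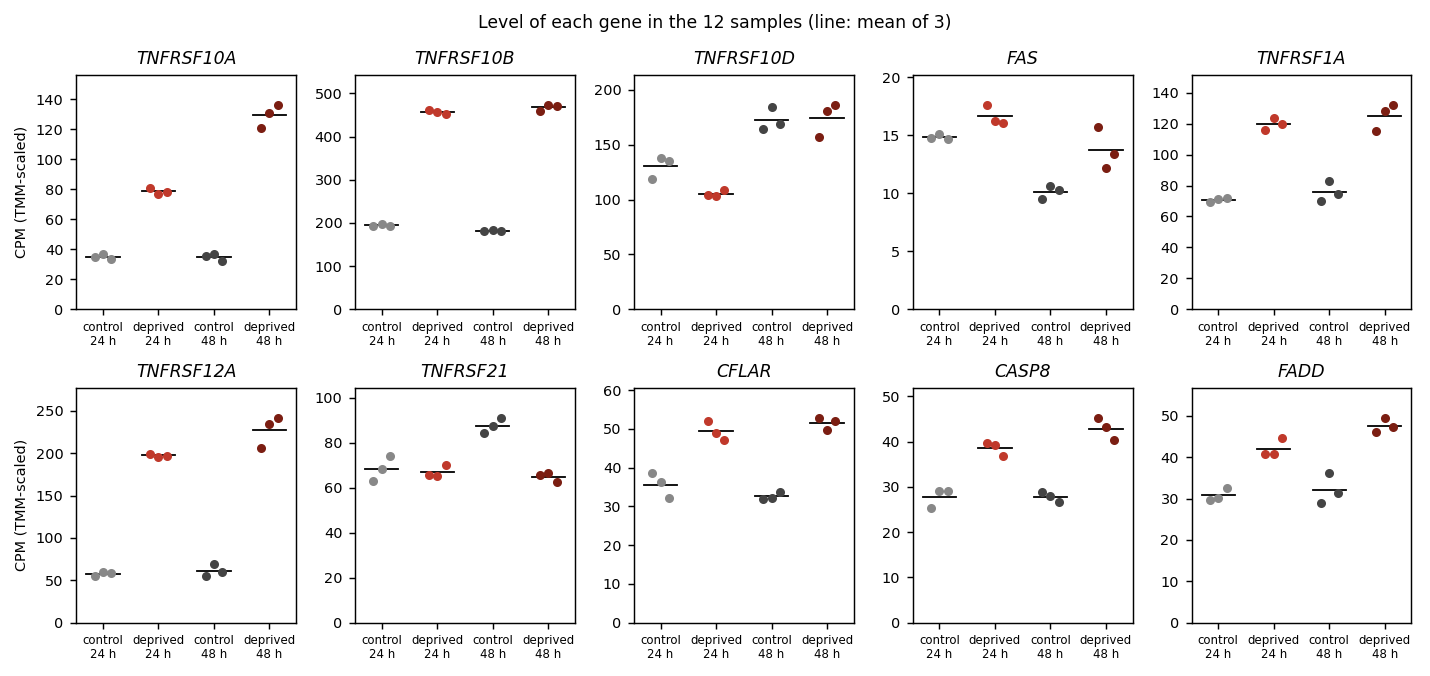
Level of each of the 10 transcripts in the 12 samples, in TMM-scaled CPM on an axis from 0, with 1 point a sample and a line at the mean of 3. TNFRSF10A rises from 32.3 to 36.9 CPM in control cells to 76.6 to 81.1 CPM at 24 h and 121 to 136 CPM at 48 h without cystine, while TNFRSF10B stands at 452 to 473 CPM in deprived cells at both times.

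The TRAIL receptors TNFRSF10A and TNFRSF10B both rose without cystine, with different courses over time. TNFRSF10B (DR5), a TRAIL receptor with a full death domain, measured 193, 198 and 194 CPM in control cells and 462, 457 and 452 CPM in deprived cells at 24 h. At 48 h it measured 181, 184 and 181 CPM in control cells and 460, 473 and 470 CPM in deprived cells. No deprived sample came near a control sample, and the ranges of the deprived samples at the 2 times overlapped. The rise was 2.35-fold at 24 h (1.23 ± 0.04, adjusted p = 2.84e-14) and 2.57-fold at 48 h (1.36 ± 0.04, adjusted p = 1.56e-15). Between 24 h and 48 h TNFRSF10B differed by 0.03 ± 0.04 in deprived cells (adjusted p = 0.566).

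TNFRSF10A (DR4), the other TRAIL receptor with a full death domain, measured 34.7, 36.7 and 33.8 CPM in control cells and 81.1, 76.6 and 78 CPM in deprived cells at 24 h. At 48 h control cells were again at 35.6, 36.9 and 32.3 CPM, but deprived cells had reached 121, 131 and 136 CPM. The deprived ranges of the 2 times did not overlap, and the control ranges did. The rise was 2.24-fold at 24 h (1.16 ± 0.06, adjusted p = 1.82e-11) and 3.71-fold at 48 h (1.89 ± 0.06, adjusted p = 3.31e-15). The deprivation effect was 0.73 ± 0.09 larger at 48 h (adjusted p = 3.23e-06). For TNFRSF10B the same difference of effects was 0.13 ± 0.06 (adjusted p = 0.0964), and this call depended on the method: it was 0.15 with an adjusted p = 0.00685 by DESeq2 and 0.18 with an adjusted p = 0.0118 when scaled by library totals.

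TNFRSF10D (DcR2), which binds TRAIL but has a truncated death domain, moved apart from both. Control cells held 119, 138 and 135 CPM at 24 h, above the 104, 103 and 109 CPM of deprived cells. At 48 h control cells held 164, 184 and 169 CPM and deprived cells 157, 181 and 186 CPM, so that the ranges overlapped. The transcript fell by 0.31 on the log2 scale at 24 h (SE 0.07, adjusted p = 0.00095) and differed by 0.02 ± 0.07 at 48 h (adjusted p = 0.795). The difference between these effects was 0.33 ± 0.10 (adjusted p = 0.0127). Over time TNFRSF10D rose in both media, by 0.40 ± 0.07 in control cells (adjusted p = 0.000339) and by 0.73 ± 0.07 in deprived cells (adjusted p = 7.68e-08).

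TNFRSF10A, TNFRSF10B and TNFRSF10D lie close together on the minus strand of chromosome 8 (GRCh38), at 23190452 to 23225126, 23020133 to 23069179 and 23135588 to 23164030. Family members with related sequences share some reads, and how the estimates split them is not known, so the values of single TRAIL receptors carry that uncertainty. The sources used here do not give strandedness. TNFRSF10A-AS1, annotated on the opposite strand over 7.59% of the exon bases of TNFRSF10A, had mean counts of 163 and 229 in control and deprived cells at 24 h and of 181 and 421 at 48 h. These counts were higher in deprived cells too. AC100861.1, also on the opposite strand, covers 9.01% of the exon bases of TNFRSF10A. Its mean counts in control and deprived cells were 125 and 144 at 24 h and 129 and 143 at 48 h. Counts of overlapping genes are not scaled for library size. At 24 h every deprived library was larger than every control library, so small differences in these counts are not read as changes. Without strand the reads in the shared bases cannot be told apart. The genes overlapping TNFRSF10B shared 1.3% of its exon bases.

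The balance between these receptors was followed in each sample as a ratio of RPKM, which is CPM per kilobase of the deposited gene length. A single length per gene was used for all samples, so levels compared between genes depend on that length. Relative to the sum of TNFRSF10A and TNFRSF10B, TNFRSF10D stood at 0.548, 0.617 and 0.626 in control cells and at 0.202, 0.204 and 0.216 in deprived cells at 24 h. At 48 h the ratios were 0.793, 0.869 and 0.834 in control cells and 0.277, 0.306 and 0.313 in deprived cells. All 6 deprived samples had less decoy transcript per death receptor transcript than any of the 6 control samples. At 48 h TNFRSF10D itself was not called different between media (0.02 ± 0.07), while TNFRSF10A and TNFRSF10B in the denominator were higher in deprived cells. Means were 0.597 ± 0.0424, 0.208 ± 0.0076, 0.832 ± 0.0379 and 0.299 ± 0.0193 (SD, n = 3) in control and deprived cells at 24 h, then control and deprived cells at 48 h.

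The ratio of TNFRSF10A to TNFRSF10B was 0.267 ± 0.00835 in control cells and 0.255 ± 0.0058 in deprived cells at 24 h (SD, n = 3). At 48 h it was 0.285 ± 0.0169 in control cells and 0.411 ± 0.0186 in deprived cells. Deprived samples at 48 h, with 0.392 to 0.429, stood above the other 9, which lay between 0.249 and 0.298. No test was run on the ratios.

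**Figure D2:**
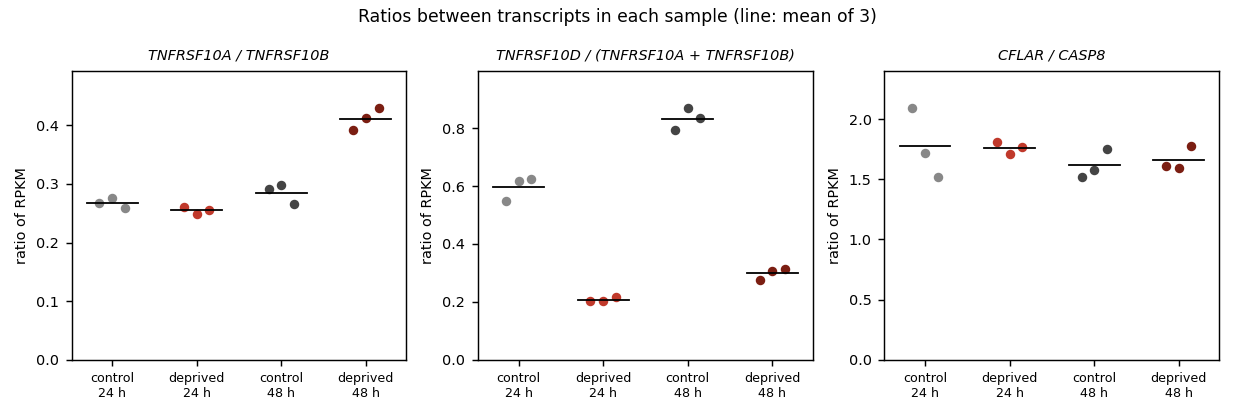
Ratios of RPKM in each of the 12 samples, on axes from 0, with 1 point a sample and a line at the mean of 3. TNFRSF10A relative to TNFRSF10B is highest in deprived cells at 48 h (0.392 to 0.429), TNFRSF10D relative to the sum of both is lower in deprived than in control cells at each time, and CFLAR relative to CASP8 overlaps between the 4 groups.

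FAS, the receptor of Fas ligand, was the lowest of the 10 transcripts and differed between media at 48 h by the test. It measured 14.8, 15.1 and 14.7 CPM in control cells and 17.6, 16.2 and 16.1 CPM in deprived cells at 24 h, which do not overlap but gave 0.16 ± 0.09 (adjusted p = 0.167). At 48 h control cells held 9.47, 10.6 and 10.3 CPM and deprived cells 15.7, 12.2 and 13.4 CPM, a rise of 1.36-fold relative to control (0.44 ± 0.10, adjusted p = 0.000619). Control cells themselves fell by 0.56 on the log2 scale between 24 h and 48 h (SE 0.10, adjusted p = 0.000496). The deprived samples at 48 h therefore spanned the range of the control samples at 24 h rather than standing above it.

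In deprived cells FAS fell by 0.27 on the log2 scale from 24 h to 48 h (SE 0.09, adjusted p = 0.0261). That call was lost without deprived replicate 1 at 24 h (adjusted p = 0.103) and without deprived replicate 2 or 3 at 48 h (adjusted p = 0.147 and adjusted p = 0.0779). With all samples kept it was also lost by DESeq2 (adjusted p = 0.0678) and without a filter (adjusted p = 0.057). The difference between the effects of deprivation on FAS was 0.28 ± 0.14 (adjusted p = 0.121), and 0.37 (adjusted p = 0.0487) without deprived replicate 2 at 48 h. FAS lies on the plus strand of chromosome 10, at 88990582 to 89015785. The smooth muscle actin gene ACTA2, on the other strand, covers 8.93% of its exon bases. Its mean counts, not scaled for library size, were 117 and 183 in control and deprived cells at 24 h. At 48 h they were 163 and 99.4.

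TNFRSF1A (TNFR1), the main receptor of TNF, rose by a similar amount at both times. It measured 69.5, 71.4 and 71.9 CPM in control cells and 116, 124 and 120 CPM in deprived cells at 24 h. At 48 h the values were 70, 83.2 and 74.6 CPM in control cells and 115, 128 and 132 CPM in deprived cells. No deprived sample overlapped a control sample. The rise was 1.69-fold at 24 h (0.76 ± 0.06, adjusted p = 1.11e-08) and 1.65-fold at 48 h (0.72 ± 0.06, adjusted p = 7.12e-09), and the effects differed by -0.03 ± 0.09 (adjusted p = 0.807).

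TNFRSF12A (Fn14), the receptor of TWEAK, which has no death domain and signals through TRAF adaptors, had the largest fold change of the 10 at 24 h. Its levels were 55.2, 59.6 and 58.4 CPM in control cells and 199, 196 and 197 CPM in deprived cells at 24 h, then 54.6, 68.9 and 59.5 CPM and 206, 234 and 241 CPM at 48 h. The rise was 3.42-fold (1.77 ± 0.07, adjusted p = 4.13e-13) and 3.72-fold (1.90 ± 0.07, adjusted p = 3.67e-14), and at 48 h it was close to that of TNFRSF10A. By fold it ranked 287 from the top among the genes with a positive change at 24 h.

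In deprived cells TNFRSF12A rose by a further 0.20 ± 0.07 between 24 h and 48 h (adjusted p = 0.025). This call was near the threshold. It was lost when any replicate of deprived cells at 24 h was left out (adjusted p between 0.0561 and 0.0695) and when replicate 2 or 3 of deprived cells at 48 h was (adjusted p = 0.0857 and adjusted p = 0.119).

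TNFRSF21 (DR6), a death receptor with roles in neurons and lymphocytes, was the only 1 of the 10 that was lower in deprived cells at 48 h. At 24 h control cells held 63.1, 68.4 and 73.9 CPM and deprived cells 65.6, 65.3 and 70.2 CPM, within the same range (-0.03 ± 0.06, adjusted p = 0.7). At 48 h control cells held 84.3, 87.3 and 90.8 CPM and deprived cells 65.5, 66.7 and 62.6 CPM, 25.8% lower in the fit. There TNFRSF21 fell by 0.43 on the log2 scale relative to control (SE 0.06, adjusted p = 3.57e-06). Control cells had risen by 0.35 ± 0.06 from 24 h to 48 h (adjusted p = 0.000346), whereas deprived cells differed by -0.05 ± 0.06 (adjusted p = 0.581). The 2 effects of deprivation differed by -0.40 ± 0.09 (adjusted p = 0.00128).

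The 3 genes of the caspase-8 platform rose together by a smaller amount than the TRAIL receptors with death domains. CASP8, the initiator caspase, measured 25.4, 29.1 and 29 CPM in control cells and 39.6, 39.3 and 36.7 CPM in deprived cells at 24 h. The 48 h samples measured 28.8, 27.9 and 26.6 CPM in control cells and 45.1, 43.2 and 40.3 CPM in deprived cells. The rise was 1.39-fold at 24 h (0.47 ± 0.07, adjusted p = 1.41e-05) and 1.54-fold at 48 h (0.63 ± 0.07, adjusted p = 1.65e-07), with no overlap between media.

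CFLAR (c-FLIP), the inhibitor at the same platform, measured 38.5, 36.3 and 32.1 CPM in control cells and 52, 48.9 and 47.1 CPM in deprived cells at 24 h. By 48 h CFLAR measured 31.8, 32.1 and 33.8 CPM in control cells and 52.7, 49.8 and 52.1 CPM in deprived cells. It rose 1.38-fold at 24 h (0.47 ± 0.07, adjusted p = 9.59e-06) and 1.58-fold at 48 h (0.66 ± 0.07, adjusted p = 5.19e-08). The effects differed by 0.19 ± 0.10 (adjusted p = 0.128), or by 0.27 (adjusted p = 0.0333) without control replicate 3 at 24 h, the lowest of its group.

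FADD, the adaptor that joins receptors to caspase-8, measured 29.7, 30.2 and 32.5 CPM in control cells and 40.9, 40.8 and 44.6 CPM in deprived cells at 24 h. At 48 h the values were 28.9, 36.1 and 31.4 CPM in control cells and 46, 49.4 and 47.3 CPM in deprived cells. FADD rose 1.37-fold (0.45 ± 0.08, adjusted p = 4.99e-05) and 1.48-fold (0.56 ± 0.07, adjusted p = 1.62e-06), again without overlap. An antisense gene, AP000879.1, shares 54.9% of the exon bases of FADD but reached 37.18 counts at most in any sample.

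The ratio of inhibitor to initiator overlapped between all groups. CFLAR relative to CASP8, in RPKM, was 2.09, 1.72 and 1.52 in control cells and 1.81, 1.71 and 1.77 in deprived cells at 24 h. The ratios at 48 h were 1.52, 1.58 and 1.75 in control cells and 1.61, 1.59 and 1.78 in deprived cells. The spread between control replicates at 24 h was wider than any difference between group means.

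From 24 h to 48 h in deprived cells, CASP8 differed by 0.15 ± 0.07 (adjusted p = 0.0776) and FADD by 0.17 ± 0.07 (adjusted p = 0.0624). Both were close to the threshold. CASP8 passed it without deprived replicate 3 at 48 h (0.20, adjusted p = 0.0457). FADD passed it without control replicate 1 or 2 at 48 h (0.18 in both, adjusted p = 0.0374 and adjusted p = 0.0335) and without deprived replicate 3 at 24 h (0.22, adjusted p = 0.0429).

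CFLAR and CASP8 are neighbours on the plus strand of chromosome 2 (GRCh38), at 201116104 to 201176687 and 201233443 to 201287711. FADD lies on the plus strand of chromosome 11, at 70203163 to 70207390, and TNFRSF1A on the minus strand of chromosome 12, at 6328757 to 6342114. TNFRSF12A lies on the plus strand of chromosome 16, at 3018445 to 3022383. TNFRSF21 lies on the minus strand of chromosome 6, at 47231532 to 47309905.

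Sequence upstream of the start is shown for CASP8 and TNFRSF1A, which rose at both times, and for TNFRSF21, which was lower at 48 h. CFLAR also rose at both times, but its windows of this kind held no match to the motifs and are not shown. The sequences are RefSeq promoters on GRCh38.p14, written 5′ to 3′ on the strand of the gene and ending before the first annotated exon base. Capitals mark matches to the motifs described after them. The first window of CASP8 lies at chr2:201233213-201233442 on the plus strand, and the second, before an inner start, at chr2:201260286-201260499. The TNFRSF1A window is chr12:6342115-6342326 and the TNFRSF21 window chr6:47309906-47310155, both on the minus strand.
CASP8, first start: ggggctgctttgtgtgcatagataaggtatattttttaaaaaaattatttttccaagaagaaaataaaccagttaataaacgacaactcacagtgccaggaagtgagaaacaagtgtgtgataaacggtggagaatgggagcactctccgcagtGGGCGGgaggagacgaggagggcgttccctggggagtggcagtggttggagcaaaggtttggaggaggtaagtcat
CASP8, inner start: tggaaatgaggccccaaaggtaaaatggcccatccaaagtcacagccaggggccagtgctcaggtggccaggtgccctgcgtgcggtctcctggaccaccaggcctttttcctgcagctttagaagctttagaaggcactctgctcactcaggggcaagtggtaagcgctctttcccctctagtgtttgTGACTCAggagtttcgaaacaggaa
TNFRSF1A: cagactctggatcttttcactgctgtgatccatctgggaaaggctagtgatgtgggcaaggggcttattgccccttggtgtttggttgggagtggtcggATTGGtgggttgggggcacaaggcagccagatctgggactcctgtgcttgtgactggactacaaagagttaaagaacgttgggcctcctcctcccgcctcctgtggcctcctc
TNFRSF21: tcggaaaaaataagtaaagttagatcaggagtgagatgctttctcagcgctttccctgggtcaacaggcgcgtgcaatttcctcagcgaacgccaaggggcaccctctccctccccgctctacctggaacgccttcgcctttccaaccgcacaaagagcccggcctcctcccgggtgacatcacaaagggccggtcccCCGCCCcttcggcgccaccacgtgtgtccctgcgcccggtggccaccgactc

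The whole 250 bases before each RefSeq start were searched on both strands for 5 motifs in CASP8, CFLAR, FADD, FAS, TNFRSF1A and TNFRSF21. The printed windows are the part of these bases ahead of the first annotated exon base. The share among 35116 promoters was counted per promoter, whereas a gene was counted if any of its starts matched. Genes with several starts had more chances to match, so gene counts and promoter shares are not directly comparable. The AP-1 site TGACTCA, bound by JUN and ATF family dimers, was found in CASP8 alone of the 6, at its inner start, and in 4.2% of all promoters. The GC box GGGCGG was found in 5 of the 6 (all but TNFRSF1A) and in 42.6% of all promoters. The CCAAT box, searched as CCAAT, was found in CASP8, outside the printed windows, and in TNFRSF1A, on the opposite strand, and in 32% of all promoters. Neither the cyclic AMP response element TGACGTCA (1.65% of promoters) nor the C/EBP-ATF composite TGATGNAAN (3.13%), through which DDIT3 and ATF4 dimers are known to act, matched in these 6 genes. TNFRSF10A, TNFRSF10B, TNFRSF10D and TNFRSF12A were not searched, so the absence does not extend to them. A match is a description of letters in the window. Only windows with a match were printed, and each of them holds 1 match that overlaps no other.

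**Figure D3:**
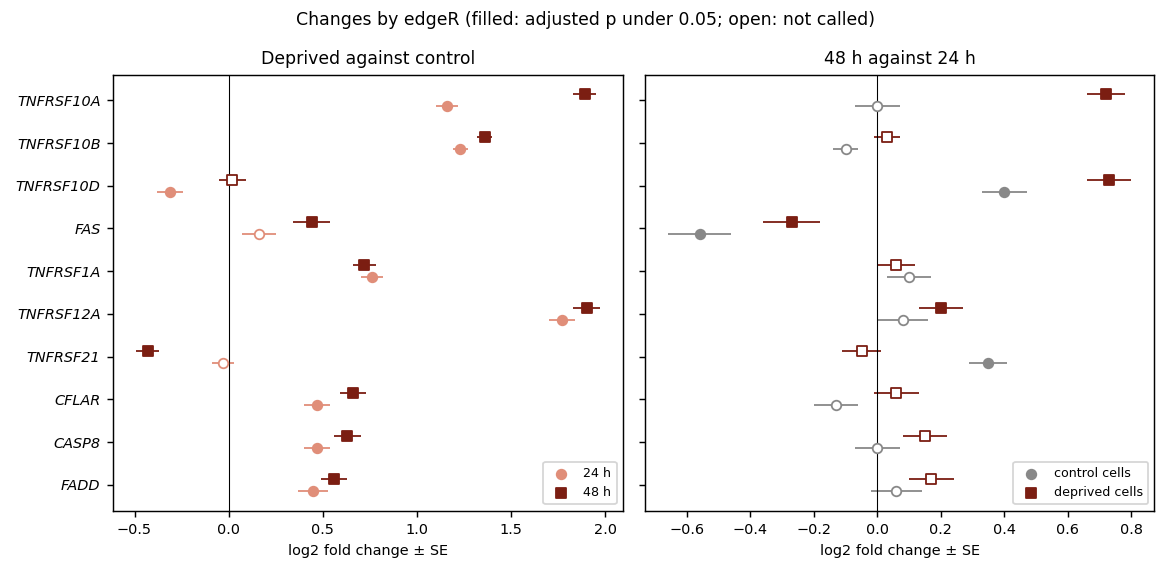
Log2 fold changes ± SE of the 10 transcripts, for deprived against control cells on the left and for 48 h against 24 h on the right, with filled symbols where the adjusted p was under 0.05. On the left, TNFRSF10A moves from 1.16 to 1.89, and TNFRSF21 reaches -0.43 at 48 h. On the right, TNFRSF10D is higher at 48 h in both media.

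Over the 10 transcripts, the deprivation effect was more positive at 48 h than at 24 h for TNFRSF10A and TNFRSF10D (2 called higher, against 16.4% of all genes) and more negative for TNFRSF21 (1 called lower, against 19.2%). For TNFRSF10A this was a larger rise, for TNFRSF10D the fall at 24 h was no longer called at 48 h, and for TNFRSF21 the fall was called at 48 h only. For the other 7 the difference was not called. Time alone also moved some of them. In control cells TNFRSF10D and TNFRSF21 rose from 24 h to 48 h (2 called higher, against 12.7% of all genes) and FAS fell (1 called lower, against 10.4%). In deprived cells TNFRSF10A, TNFRSF10D and TNFRSF12A rose (3 called higher, against 20.7%) and FAS fell (1 called lower, against 21.8%). The FAS and TNFRSF12A calls in deprived cells depended on single samples, as given with their values, and that of FAS also on the method.

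Compared per length, TNFRSF12A and TNFRSF10B led the 10 transcripts in control cells at 24 h, with 51 ± 1.99 and 48.8 ± 0.608 RPKM (SD, n = 3), and their ranges overlapped. TNFRSF10D followed with 36.9 ± 2.9 RPKM and TNFRSF1A with 32.7 ± 0.581 RPKM. TNFRSF21, FADD and CFLAR came next with 19.1, 18 and 16.7 RPKM, each overlapping its neighbour. TNFRSF10A with 13, CASP8 with 9.5 and FAS with 4.03 RPKM closed the order without overlap.

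Deprivation moved TNFRSF10A up this order. In deprived cells at 24 h TNFRSF12A (174 ± 1.06 RPKM) and TNFRSF10B (114 ± 1.3 RPKM) stood apart from TNFRSF1A (55.2 ± 1.75 RPKM). TNFRSF10A reached 29.2 ± 0.846 RPKM, which overlapped TNFRSF10D at 29.8 ± 0.824 RPKM, and FADD (24.6 RPKM) overlapped CFLAR (23.2 RPKM). TNFRSF21 (18.6 RPKM), CASP8 (13.2 RPKM) and FAS (4.5 RPKM) came last.

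At 48 h the control order had TNFRSF12A at 53.8 ± 6.4 RPKM, overlapping TNFRSF10D at 48.7 ± 2.85 RPKM, which in turn stood above TNFRSF10B at 45.5 ± 0.447 RPKM. TNFRSF1A, TNFRSF21, FADD, CFLAR, TNFRSF10A, CASP8 and FAS followed at 35, 24.3, 18.8, 15.3, 13, 9.48 and 2.74 RPKM without overlap. In deprived cells TNFRSF12A reached 200 ± 16.3 RPKM and TNFRSF10B 117 ± 1.69 RPKM. TNFRSF1A was at 57.7 ± 4.02 RPKM, and TNFRSF10D (49.4 ± 4.42 RPKM) overlapped TNFRSF10A (48.1 ± 2.74 RPKM). FADD, CFLAR, TNFRSF21, CASP8 and FAS then stood apart from each other at 27.8, 24.2, 18.1, 14.6 and 3.72 RPKM.

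**Figure D4:**
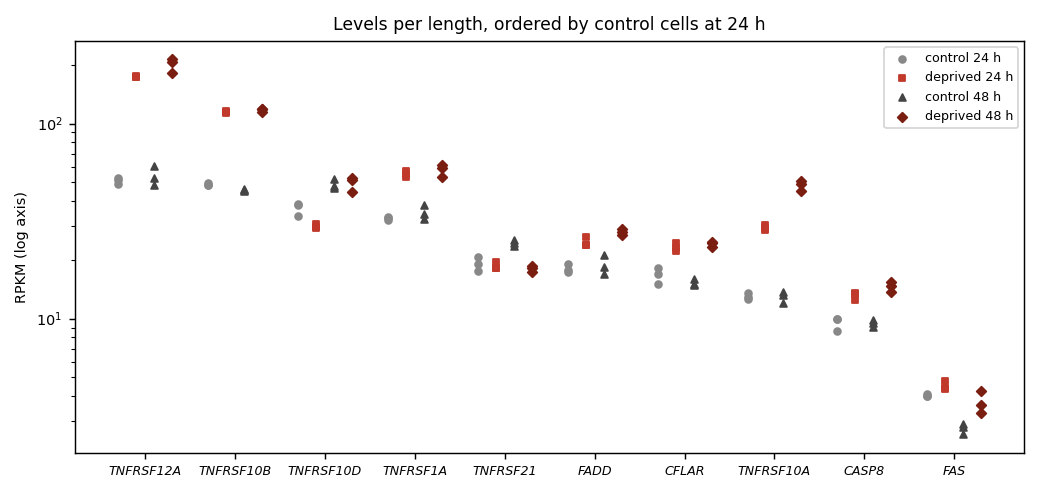
Level per length of the 10 transcripts in the 12 samples, in RPKM on a log axis, with genes ordered by their mean in control cells at 24 h. TNFRSF12A is highest in all 4 groups and FAS lowest, while TNFRSF10A moves from 13 RPKM in control cells to 48.1 RPKM in deprived cells at 48 h.

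Of 6 ligands of the TNF family, 5 had too few counts to be tested. FASLG had 0 counts in every sample, which allows up to 0.154 CPM in the shallowest library at 3 counts, counting error only. TNF reached 1 count, TNFSF10 (TRAIL) 5, TNFSF15 7 and LTA 12 in any sample. TNFSF12 (TWEAK), the ligand of TNFRSF12A, was tested and was not called at either time. It measured 6.96 ± 2.11 and 6.38 ± 0.745 CPM in control and deprived cells at 24 h and 9.6 ± 0.511 and 8.17 ± 0.967 CPM at 48 h (SD, n = 3).

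For the counts over the other gene lists, the shares of all tested genes are again 28.8% higher and 26.9% lower at 24 h, and 33.5% higher and 34.9% lower at 48 h, with medians of -0.01 and -0.02. Among other receptors of the family, 8 of 11 were tested, of which 1 was higher and 5 were lower at 24 h, and 1 was higher and 6 were lower at 48 h. Their median log2 fold change was -0.64 and then -1.48. NGFR, the neurotrophin receptor p75 with a death domain, fell by 1.01 on the log2 scale at 24 h (SE 0.07, adjusted p = 1.29e-09). At 48 h it fell by 3.07 (SE 0.08, adjusted p = 1.75e-16), to 5.39 ± 0.412 CPM against 45.2 ± 3.17 CPM in control cells. TNFRSF6B (DcR3), a soluble decoy for Fas ligand whose exons also belong to a readthrough transcript with RTEL1, fell by 1.97 at 48 h (SE 0.10, adjusted p = 3.23e-12). Its control level had gone from 54.8 ± 8.63 CPM at 24 h to 132 ± 16.6 CPM at 48 h. CD40 fell by 0.85 and 1.08 on the log2 scale (adjusted p = 2.44e-08 and adjusted p = 2.36e-10), and TNFRSF19 fell by 1.80 at 24 h (SE 0.24, adjusted p = 2.67e-06). LTBR, the lymphotoxin beta receptor, rose by 0.57 ± 0.06 at 48 h (adjusted p = 5.21e-08). TNFRSF10C, the other TRAIL decoy, was at 1.7 ± 1.11 CPM in control and 3.51 ± 0.881 CPM in deprived cells at 24 h, a low level at which it was called higher (1.05 ± 0.35, adjusted p = 0.0156).

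Of the adaptors, kinases and ubiquitin enzymes of the receptor complexes, 27 of 28 were tested. At 24 h 9 were higher, a share near the 28.8% of all genes, and 5 lower (26.9% of all genes), with a median of 0.11. At 48 h 13 were higher (33.5% of all genes) and 5 lower (34.9%), with a median of 0.23. RBCK1 (HOIL-1), a subunit of the linear ubiquitin ligase, rose from 59.4 ± 2.02 to 336 ± 5.57 CPM at 24 h (2.50 ± 0.05, adjusted p = 5.59e-17) and by 2.17 ± 0.05 at 48 h (adjusted p = 1.85e-17). RNF31 (HOIP), the catalytic subunit of the same ligase, fell by 0.42 at 48 h (SE 0.06, adjusted p = 8.96e-06). PEA15, a death effector domain protein that binds FADD and caspase-8, rose by 1.06 ± 0.07 and 1.30 ± 0.07 (adjusted p = 3.53e-10 and adjusted p = 4.09e-12). FAF1, a FAS-associated factor, rose by 1.03 ± 0.07 at 24 h (adjusted p = 4.68e-10), and CYLD, a deubiquitinase of these complexes, by 1.09 ± 0.08 at 48 h (adjusted p = 2.41e-10). BIRC3 (cIAP2) fell by 0.59 at 24 h (adjusted p = 0.00174), TAB2 by 0.19 and 0.51, and the kinase IKBKB by 0.31 and 0.37. RIPK3, the kinase of necroptosis, had 0 counts in all 12 samples, under the same limit as FASLG.

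Downstream of caspase-8, 5 of 16 genes were higher at 24 h, a share near the 28.8% of all genes, and 7 were lower (26.9% of all genes), with a median of -0.11. At 48 h 8 were higher (33.5% of all genes) and 4 lower (34.9%), with a median of 0.18. CYCS, cytochrome c, rose by 0.66 ± 0.05 and 1.22 ± 0.05 (adjusted p = 3.09e-09 and adjusted p = 1.56e-13). DFFA, the inhibitor of the caspase-activated nuclease, rose by 0.74 ± 0.06 and 1.57 ± 0.06 (adjusted p = 4.28e-09 and adjusted p = 2.42e-14). XIAP, an inhibitor of executioner caspases, rose by 0.71 ± 0.07 and 0.93 ± 0.07 (adjusted p = 8.50e-08 and adjusted p = 7.38e-10). The executioner caspase CASP6 fell by 0.66 at 24 h (SE 0.10, adjusted p = 2.28e-05). APAF1, the apoptosome scaffold, fell by 0.49 and 1.31 (adjusted p = 4.97e-06 and adjusted p = 4.10e-12). At 48 h PARP1, a caspase substrate, fell by 0.23 (adjusted p = 0.00069) and BIRC5 (survivin), which also serves mitosis, fell by 3.50 (SE 0.08, adjusted p = 1.27e-17), to 16.7 ± 1.79 CPM against 189 ± 14.9 CPM in control cells. The list therefore held both promoters and inhibitors of apoptosis among the genes that rose and among those that fell.

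Of 10 transcription factors known to act on TRAIL receptor or FAS promoters, 7 were higher at 24 h (28.8% of all genes) and 1 lower (26.9%), with a median of 0.51. At 48 h 8 were higher (33.5% of all genes) and 1 lower (34.9%), with a median of 0.61. DDIT3 (CHOP), the stress factor known to activate TNFRSF10B, rose from 11.2 ± 0.885 to 95.4 ± 2.08 CPM at 24 h (3.09 ± 0.08, adjusted p = 5.05e-16). At 48 h it stood at 57.2 ± 1.89 CPM against 12.1 ± 1.62 CPM (2.24 ± 0.08, adjusted p = 8.78e-15). JUN rose by 2.63 ± 0.07 and 3.04 ± 0.07 (adjusted p = 1.05e-15 and adjusted p = 1.40e-17), and ATF3 by 2.10 ± 0.07 and 2.39 ± 0.07 (adjusted p = 2.83e-14 and adjusted p = 7.87e-16). YY1, a known repressor of receptor genes, fell by 0.13 and 0.34 (adjusted p = 0.0344 and adjusted p = 8.48e-06).

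Of the NF-kappaB output genes, which TNF receptors switch on, 13 of 14 were tested. At 24 h 6 were higher (28.8% of all genes) and 3 lower, the latter a share near the 26.9% of all genes, with a median of 0.28. At 48 h 6 were higher (33.5% of all genes) and 1 lower (34.9%), with a median of 0.14. CXCL8 rose by 1.65 ± 0.25 and 3.78 ± 0.19 (adjusted p = 1.33e-05 and adjusted p = 1.29e-12), to 15.7 ± 0.747 CPM, and IER3 by 0.92 ± 0.05 at 24 h (adjusted p = 4.41e-11). RELB rose by 0.63 ± 0.10 at 24 h (adjusted p = 3.92e-05). The chemokines CXCL1 and CXCL2 rose at 48 h by 2.54 ± 0.34 and 3.97 ± 0.55 from low levels, reaching 2.81 ± 0.853 and 1.26 ± 0.159 CPM. The feedback inhibitors NFKBIA and TNFAIP3 fell at 24 h by 0.49 each (adjusted p = 0.000122 and adjusted p = 0.0195), and NFKB2 fell by 0.18 at 48 h (adjusted p = 0.0345).

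Of the genes that modify or shed the receptors, 7 of 8 were tested. At 24 h 5 were higher (28.8% of all genes) and 2 lower, the latter a share near the 26.9% of all genes, with a median of 0.43. At 48 h 4 were higher (33.5% of all genes) and 2 lower (34.9%), with a median of 0.57. FUT3, a fucosyltransferase, rose by 2.36 ± 0.17 and 2.95 ± 0.16 (adjusted p = 1.14e-09 and adjusted p = 3.90e-12), from 1.23 ± 0.125 CPM in control cells at 24 h to 11.7 ± 0.779 CPM in deprived cells at 48 h. ADAM17, the sheddase of TNF and TNFRSF1A, rose by 0.70 ± 0.05 and 0.78 ± 0.05 (adjusted p = 2.32e-09 and adjusted p = 1.58e-10). ERAP1, which binds TNFRSF1A and helps its shedding, rose by 0.45 ± 0.11 and 1.02 ± 0.11 (adjusted p = 0.00175 and adjusted p = 5.56e-08). ADAM10 fell by 0.64 and 1.25 (adjusted p = 6.60e-08 and adjusted p = 1.88e-12), and MARCHF8, a ubiquitin ligase of TRAIL receptors, by 0.48 and 0.61 (adjusted p = 4.71e-06 and adjusted p = 1.40e-07).

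**Figure D5:**
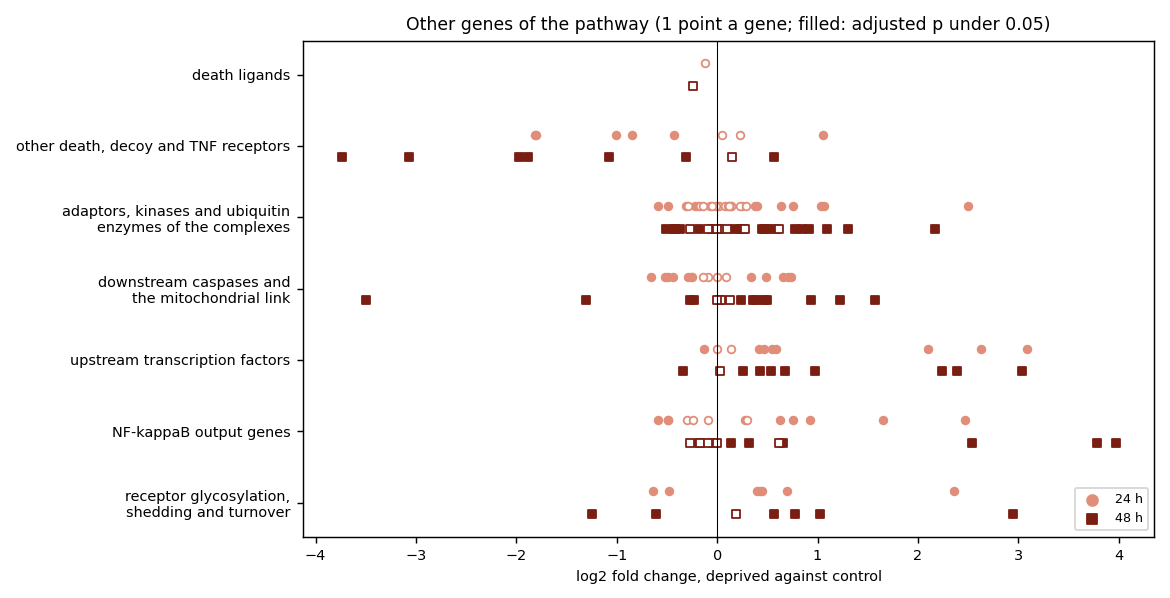
Log2 fold changes of the other tested genes of the pathway, 1 point a gene, for deprived against control cells at 24 h and 48 h, with filled symbols where the adjusted p was under 0.05. Among the other receptors 6 of 8 were called lower at 48 h (34.9% of all tested genes). Among the transcription factors 8 of 10 were called higher at 48 h (33.5% of all tested genes).

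Genes whose levels ran most like those of each receptor were found by Pearson's r of log2 CPM over the 12 samples, among 11308 genes. The 12 samples share 4 groups, and a gene that differs between media in the same way will score high, so the values are descriptions. The choice also rests on the measure: by Spearman's rho, 0 of the genes named here were among the nearest for 9 of the 10 transcripts, and for TNFRSF10D 2 of 2 were. For TNFRSF10B the 5 most alike were HYOU1, TRIB3, UPP1, FLYWCH1 and EIF3J, with r between 0.998 and 0.999 and rho between 0.776 and 0.93. HYOU1 is a chaperone of the endoplasmic reticulum and TRIB3 a pseudokinase raised in stress. TNFRSF10A ran most like HBEGF and SQSTM1 (r = 0.997 for both), and TNFRSF12A and TNFRSF1A both ran most like BCL2L1 (r = 0.999 and r = 0.996), the gene of the apoptosis inhibitor BCL-xL.

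The second gene for TNFRSF12A was CSNK2A1 (r = 0.998). CFLAR ran most like PAK1IP1 and TSEN15 (r = 0.988 and r = 0.986), CASP8 like AADACP1 and N4BP1 (r = 0.990 and r = 0.988), and FADD like PSMG3 and ELOVL1 (r = 0.987 and r = 0.984). The 3 transcripts with courses of their own had looser partners. These were IL10RB and ACTG1 for TNFRSF10D (r = 0.968 and r = 0.966), MRPL13 and ZBED5 for FAS (r = 0.961 and r = 0.931), and ANKRD37 and ELF3 for TNFRSF21 (r = 0.965 and r = 0.962).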

How the data were processed

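RNA-seq of 12 samples was analysed, grouped by the titles in the labels. The authors deposited estimated counts per gene, 1 column per sample, without normalization, and the gene length in bases, which is the other column used here. The submitters' processing notes name fastp, HISAT, RSEM and the build GRCh38, without versions or roles, and no source used here gives the annotation release. A TPM table is mentioned in the labels. Column totals of the deposited values differ between samples, however, and 63.4% of values above 0 are whole, so they were taken as estimated counts.

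Counts were rounded to whole numbers. The 316 rows without a gene name held 0.762% to 1.55% of counts on average in the 4 groups and were left out. edgeR's filterByExpr (at least 10 counts, 15 in total) kept 16994 genes, which entered 1 fit of 4 group means (edgeR 4.0.16, R 4.3.3, glmQLFit and glmQLFTest, TMM factors), with 5 contrasts and Benjamini-Hochberg adjustment at 0.05. The SE is the log2 fold change divided by the root of F. The biological coefficient of variation was 6.4%. Between replicates, chi-square divided by its degrees of freedom was 3.11 to 9.24, above sampling noise, and each sample was counted once. The steps were tested on simulated data. Alternatives were RLE, upper-quartile and library-total scaling, DESeq2 1.42.0, no filter, a mean of at least 5 CPM, a replicate block, only the groups compared, and leaving out each sample.

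The members and the gene lists were chosen with earlier results of these data known. All 10 genes are reported. From each list the tested genes with the smallest adjusted p were named, up to 3 in each direction at each time, and by likeness the 5 nearest genes for TNFRSF10B and the 2 nearest for each of the others (mean of at least 5 CPM). Some genes that this rule takes are left out of the text. Coordinates and overlaps are from GENCODE v29 on GRCh38, matched by gene identifier, which is not stated to be the authors' release.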

Additional observations from a re-analysis of the deposited data

Results flagged for a closer look

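For 3 of the 10 transcripts the effect of deprivation differed between 24 h and 48 h by edgeR's test of the difference itself. Of all tested genes, 16.4% were called higher and 19.2% lower by that test, so the count does not set these transcripts apart. The effect is given here for each of the 3. It was larger at 48 h for TNFRSF10A by 0.73 on the log2 scale (adjusted p = 3.23e-06) and more positive for TNFRSF10D by 0.33 (adjusted p = 0.0127). For TNFRSF21 it was more negative, with a difference of -0.40 (adjusted p = 0.00128). For TNFRSF10A the control levels of the 2 times overlapped, and the deprived cells differed. For TNFRSF21 the control cells rose with time and the deprived cells stayed between 62.6 and 70.2 CPM.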

How the results depend on the processing

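Under every alternative run, including each sample left out, 7 of the 10 transcripts were called higher and 1 lower at 24 h, and 8 higher and 1 lower at 48 h. The call of each transcript in these 2 comparisons was kept. Of the values of single transcripts over all comparisons, 946 kept direction and side of the threshold, 16 passed it newly, 10 lost it and 18 changed sign. With the replicate number as a block (replicate block), 4 rather than 3 were called higher in deprived cells from 24 h to 48 h, FADD joining at 0.18 (adjusted p = 0.0415), and no other call changed. Same-numbered control and deprived samples deviated together by correlations of -0.05 to 0.26, and 6 of 12 samples were closest to their own number. With 3 samples a group, these values cannot decide whether the numbers pair the samples.

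In control cells from 24 h to 48 h, 2 transcripts were called lower under library totals and 2 by DESeq2, TNFRSF10B joining FAS at -0.15 (adjusted p = 0.00956) and -0.10 (adjusted p = 0.0207). Library totals also moved the share of higher among all genes called in that comparison from 55% to 39.7%. In deprived cells from 24 h to 48 h, 0 were called lower by DESeq2 and 0 without a filter, FAS being lost (adjusted p = 0.0678 and adjusted p = 0.057), and 0 to 1 with 1 sample left out. FADD was called there under RLE, upper-quartile and library-total scaling, the stricter filter and only the groups compared.

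The signs that changed all belong to values that were not called. TNFRSF10D at 48 h was -0.04 under upper-quartile scaling, -0.00 under library totals, -0.01 under the filter at a mean of 5 CPM, and -0.02 to 0.10 with 1 sample left out. TNFRSF21 at 24 h was -0.09 to 0.03 with 1 left out. The difference of effects for TNFRSF1A was 0.02 under library totals and -0.09 to 0.04 with 1 left out. In control cells over time, TNFRSF10A and CASP8 were both 0.01 under the 5 CPM filter, and with 1 left out TNFRSF10A reached 0.05. CASP8 was then -0.07 to 0.03, TNFRSF12A -0.02 to 0.15 and FADD -0.03 to 0.13. The cause of these changes was not tested. Fitting only the groups compared cannot give the difference of effects, which uses all 4. Without gene length the group means of the ratio of CFLAR to CASP8 were 1.18 to 1.29. Those of TNFRSF10A to TNFRSF10B were then 0.172 to 0.277, and those of TNFRSF10D to the sum of both 0.197 to 0.793. By Spearman's rho in place of Pearson's r, 0 of the nearest genes were shared for 9 of the 10 transcripts, and 2 of 2 for TNFRSF10D. Of 6 ligands, 5 were under the count filter and have no test.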
